A study of Mus musculus with 91 samples.

Results

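Alkaline phosphatase and the enzymes and carriers that act with it in mineralization were followed through single stromal cells of mouse bone marrow. The 6 genes, named by symbol among the 16580 genes of the count table, were Alpl, Phospho1, Enpp1, Enpp6, Slc20a1 and Slc20a2, and all 6 were found. The study sorted single cells of C57BL/6 marrow, released by crushing bones, into plates with the light scatter and antibody signal of every cell recorded, and sequenced full-length cDNA by Smart-seq2. All cells were sorted as negative for CD45, Ter119, CD41 and CD71 and positive for a DNA dye and for VCAM1. The CD61+ gate held 39 cells (17 on plate 1 and 22 on plate 2), the CD61- gate 40 cells (24 and 16), and a VCAM1+ gate without selection on CD61 held 9 cells. For 3 further cells the title and the gate label disagreed on CD61, so they entered values over all 91 cells and no comparison of gates.

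No animal is named in the labels and age, sex and treatment are not given in the sources used here, so each gate was 1 sample and no difference between gates could be tested. Since cells of different gates were on different plates, a gate effect and a plate effect cannot be told apart. The depth of a cell lay between 507713 and 6702475 counts (median 2060906). Levels are given as CPM, a gene's counts scaled to a common total, either in 1 cell or in the summed counts of a group. All intervals, in parentheses, are exact at the 95% level and take in only the error of counting. Smart-seq2 reads carry no molecular identifiers and are not independent molecules, so the intervals are narrower than the spread between cells.

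Mineral forms where phosphate is freed close to collagen and where pyrophosphate, which blocks crystal growth, is removed. Tissue-nonspecific alkaline phosphatase, encoded by Alpl, sits on the surface of osteoblasts and matrix vesicles and splits pyrophosphate. Phospho1 frees phosphate from phosphocholine and phosphoethanolamine inside vesicles, Enpp6 is a choline-specific phosphodiesterase, Enpp1 makes pyrophosphate from nucleotide triphosphates, and Slc20a1 and Slc20a2 (Pit1 and Pit2) carry sodium and phosphate into cells.

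The cells were placed between stromal and bone-forming ends by Cxcl12, the chemokine of CXCL12-abundant reticular (CAR) cells, and Spp1, osteopontin, neither of which is among the 6 genes. A cell was called Spp1-rich when Spp1 was at least 8 times Cxcl12 (each as CPM + 1), Cxcl12-rich for the reverse, and intermediate otherwise, and low in both when neither gene reached 1000 CPM. These classes are ranges of cells and not cell types. There were 52 Cxcl12-rich cells (15 CD61+, 31 CD61-, 3 VCAM1+ and the 3 without a gate), 11 intermediate cells (7 CD61+ and 4 CD61-), 17 Spp1-rich cells (14 CD61+, 2 CD61- and 1 VCAM1+) and 11 low in both (3, 3 and 5). Only 4 cells lay within 2-fold of the 8-fold limit and 2 within 2-fold of the CPM minimum. All 10 CAR markers searched were counted in at least 50% of the Cxcl12-rich cells and of the intermediate cells, and all 11 osteolineage markers, which include Spp1, in at least 50% of the Spp1-rich cells. By the same measure 8 osteolineage markers were found in Cxcl12-rich and 10 in intermediate cells, and 6 CAR markers in Spp1-rich cells. By this measure the lists overlap between classes and part them only incompletely. Levels differed more: the 10 CAR markers summed to a median of 40235 CPM per Cxcl12-rich, 20779 per intermediate and 379 per Spp1-rich cell. For the 11 osteolineage markers these medians were 11016, 23502.5 and 198534 CPM. The lists include Cxcl12 and Spp1, which set the classes, so this order is partly given. Intermediate cells held both genes at high level, with Spp1 from 2743 to 30395 CPM and Cxcl12 from 3876 to 28461 CPM.

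The 6 genes did not share 1 pattern. Alpl was found in each of the 3 classes that held Cxcl12 or Spp1 and had its highest summed level in intermediate cells, though as large a share of Spp1-rich cells held it. Slc20a2 was also highest in intermediate cells but nearly absent from Spp1-rich cells, Enpp1 was highest in Spp1-rich cells and low in intermediate ones, and Enpp6 was high in Spp1-rich cells and in 3 cells with endothelial transcripts. Slc20a1 was found in single cells of every class, and Phospho1 was nearly absent.

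**Figure D1:**
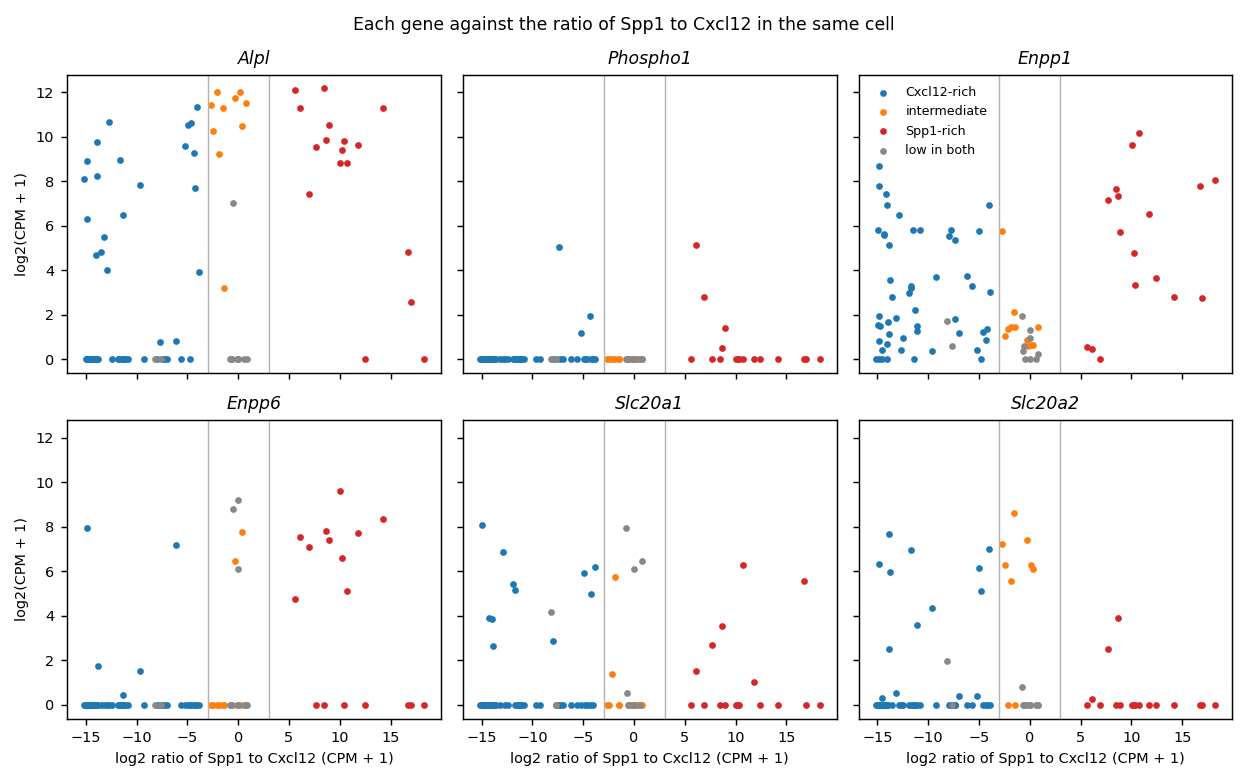
Level of each gene in single cells as log2(CPM + 1) against the log2 ratio of Spp1 to Cxcl12 in the same cell, with 1 point per cell coloured by class and vertical lines at the 8-fold limits. Most Alpl points are high from the middle to the right, but most cells at the far right hold little or none. Enpp1 is high in part of the cells at both ends and low in most of the middle. Slc20a2 is high in most cells of the middle and low at the right.

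Per kilobase of the longest coding transcript, which allows genes to be ranked, Alpl stood far above the rest. In the summed counts of all 91 cells its level was 246 CPM per kb. Enpp6 followed at 9.38, Enpp1 at 7.96, Slc20a2 at 4.58 and Slc20a1 at 4.50 CPM per kb, and Phospho1 was last at 0.800 CPM per kb. The order differed between classes: in Spp1-rich cells Enpp6 (26.01 CPM per kb) and Enpp1 (25.3) came next after Alpl (467), whereas in intermediate cells Slc20a2 (22.5 CPM per kb) came next after Alpl (867). The Enpp6 and Enpp1 levels in Spp1-rich cells, and those of Slc20a1 and Slc20a2 over all cells, lie much closer together than single cells of one class do, so their order cannot be read from the sums. The order of Enpp6 and Enpp1 over all cells turned without the 4 cells with the endothelial gene Cdh5, to 7.27 and 8.37 CPM per kb.

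**Figure D2:**
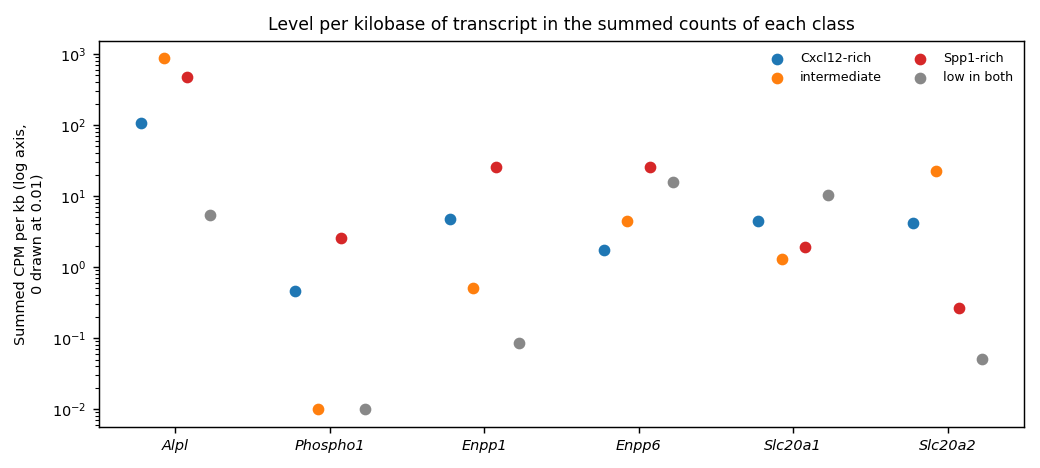
Level of each gene per kilobase of transcript in the summed counts of each class, on a log axis, with a level of 0 drawn at 0.01. Alpl reaches 867 CPM per kb in intermediate cells, and Slc20a2 drops from 22.5 there to 0.263 CPM per kb in Spp1-rich cells.

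Alpl lies on the minus strand of chromosome 4 (chr4:137741733-137796384 of GRCm38). RefSeq lists 2 starts for it, and their upstream sequences are shown because the deposited counts are per gene and cannot say which start these cells used. Each is the 250 bases before the start on GRCm38.p6, minus strand, at chr4:137796385-137796634 for the first and chr4:137766476-137766725 for the second, with capitals on matches to the motifs searched:
Alpl start 1: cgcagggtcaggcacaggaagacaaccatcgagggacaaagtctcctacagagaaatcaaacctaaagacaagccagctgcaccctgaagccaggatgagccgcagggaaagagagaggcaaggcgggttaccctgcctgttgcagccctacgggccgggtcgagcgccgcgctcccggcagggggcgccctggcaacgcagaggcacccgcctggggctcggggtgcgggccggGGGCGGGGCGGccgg
Alpl start 2: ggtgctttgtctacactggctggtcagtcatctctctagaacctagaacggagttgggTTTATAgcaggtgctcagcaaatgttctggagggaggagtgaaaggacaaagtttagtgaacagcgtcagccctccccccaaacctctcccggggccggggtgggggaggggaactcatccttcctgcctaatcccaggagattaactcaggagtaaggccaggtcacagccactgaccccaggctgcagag
The motifs, sought on both strands, were the RUNX core TGTGGT, the CCAAT box CCAAT, the GC box GGGCGG, the TATA box TATAAA, the E-box CACGTG and the forkhead core TGTTTAC. The first window held 2 overlapping GC boxes and was 68.4% G and C. The second held a TATA box and no GC box and was 56.0% G and C. Of 32851 promoters of this length, 32.7% held the GC box and 12.4% the TATA box, so a match describes the sequence and marks no site in use.

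Of 91 cells 48 had an Alpl count and 44 had at least 10 CPM, a limit added after the values were seen because many cells held only 1 to 3 counts of Enpp1. At that limit Alpl was found in more cells than any other of the 6 genes, whereas at 1 count and at 4 counts Enpp1 was. The 44 cells started at 14.3 CPM with a median of 746 CPM and reached 4650 CPM, while the highest cell below the limit held 8.16 CPM. In intermediate cells Alpl ran from 0 through a median of 2507 to 4173 CPM. In Spp1-rich cells it ran from 0 through 734 to 4650 CPM, and in Cxcl12-rich cells from 0 through 0 to 2569 CPM. The ranges of the 3 classes overlapped, and the share of cells with the gene was near equal in the first 2 and lower in the third: 9 of 11 intermediate (81.8%, 48.2 to 97.7), 14 of 17 Spp1-rich (82.4%, 56.6 to 96.2) and 20 of 52 Cxcl12-rich cells (38.5%, 25.3 to 53.0). Of cells low in both genes, 1 of 11 had Alpl.

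In summed counts Alpl stood at 2186 CPM in intermediate cells, 1177 CPM in Spp1-rich cells, 270 CPM in Cxcl12-rich cells and 13.4 CPM in cells low in both. Intermediate cells were thus 8.11-fold above Cxcl12-rich cells (7.99 to 8.22) and 1.86-fold above Spp1-rich cells (1.83 to 1.88). The second margin, 0.89 on the log2 scale, was 0.27 with TMM factors and 0.33 with DESeq2 size factors, which scale the totals by the bulk of the genes. By plate it was 1.37 and 0.56 in the CD61+ plates. In the CD61- plates, each with 1 Spp1-rich cell, it was 1.58 in plate 2, and the order was turned in plate 1 (-1.53). Within each of the 4 CD61 plates the log2 ratio of intermediate to Cxcl12-rich cells was between 2.54 and 2.96. That of Spp1-rich to Cxcl12-rich cells was 1.53 and 1.98 in the CD61+ plates. It was 0.99 and 4.49 in the CD61- plates, each from a single Spp1-rich cell. Levels in Spp1-rich cells are relative to totals of which Spp1 alone took a median of 12.8% and at most 33.1%.

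Gates differed more in how many cells held Alpl than in its summed level. CD61+ cells ran from 0 through a median of 455 to 4366 CPM and CD61- cells from 0 through 0 to 4650 CPM, so the ranges overlapped. At least 10 CPM was reached by 30 of 39 CD61+ cells (76.9%, 60.7 to 88.9) and by 12 of 40 CD61- cells (30.0%, 16.6 to 46.5). The 2 CD61+ plates had 70.6% and 81.8%, the 2 CD61- plates 29.2% and 31.2%. Summed Alpl was 938 CPM in CD61+ and 630 CPM in CD61- cells, 1.49-fold apart (1.47 to 1.504), and the 12 CD61- cells with the gene had a median of 1184 CPM against 701.2 CPM in the 30 CD61+ cells. Counting cells and summing counts therefore give different sizes for this contrast: the difference of mean log2(CPM + 1) was 3.92, against a log2 ratio of sums of 0.57.

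Among Cxcl12-rich cells alone, 11 of 15 CD61+ cells had Alpl (73.3%, 44.9 to 92.2) against 8 of 31 CD61- cells (25.8%, 11.9 to 44.6). By plate these counts were 6 of 8 and 5 of 7 against 5 of 20 and 3 of 11. Their summed levels, 331 CPM and 304 CPM, were close.

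**Figure D3:**
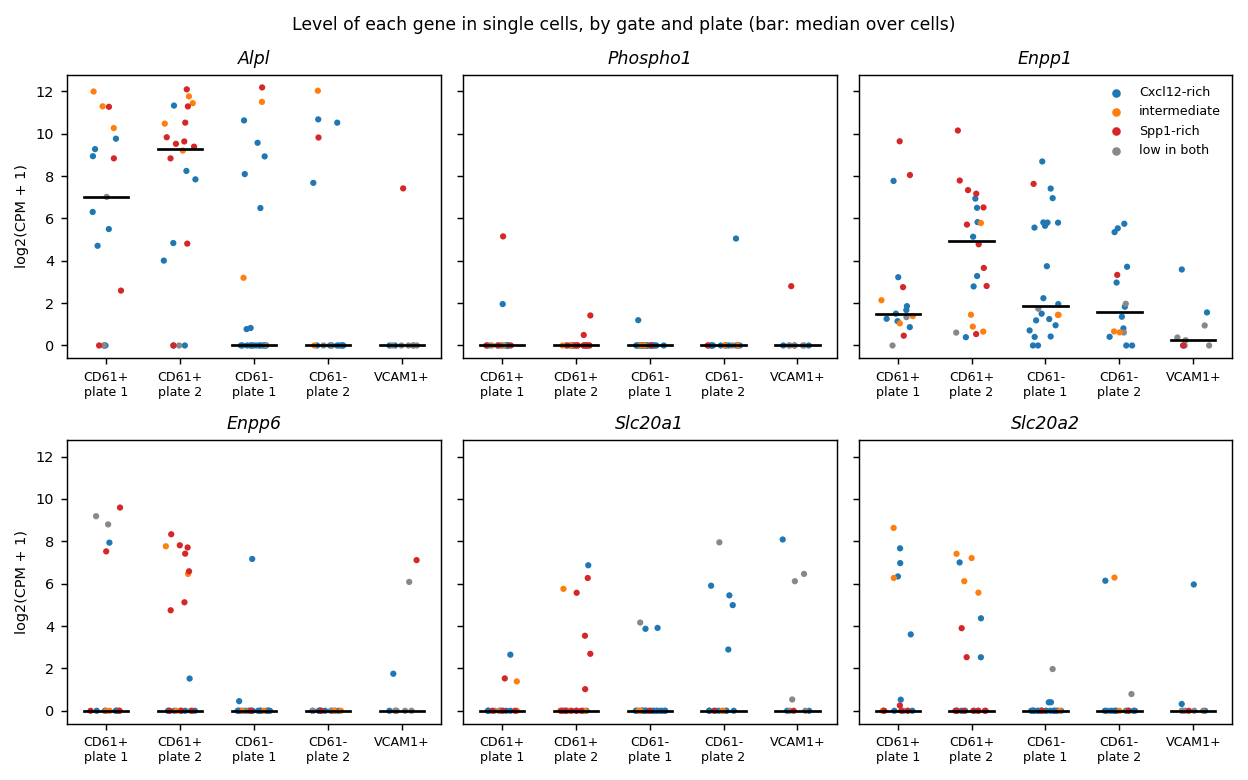
Level of each gene in single cells as log2(CPM + 1), by gate and plate, coloured by class, with a bar at the median. For Alpl the median lies above 0 in both CD61+ plates and at 0 in the other groups, and most Enpp6 points above 0 are in the CD61+ plates.

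Index sorting gave the surface signal of the same cells. In the CD61+ gate the deposited CD200 intensity had a median of 2662.5 in the 30 cells with Alpl and 463 in the 9 without. In the CD61- gate the medians were 627 in 12 cells and 275 in 28 cells. The ranges overlapped in both gates (114 to 7834 and 58 to 5056 in CD61+, 289 to 3456 and 20 to 883 in CD61-). The medians of forward scatter, which grows with cell size, were 147302.5 and 146644 in the CD61+ gate. Spearman's rho of Alpl with CD200 was 0.64 over all 91 cells, 0.45 over the 39 CD61+ and 0.58 over the 40 CD61- cells. By class it was 0.59 in the 52 Cxcl12-rich and 0.62 in the 11 intermediate cells, but -0.27 in the 17 Spp1-rich cells. The rho of Alpl with total counts was 0.084 over all cells, 0.14 over CD61+ and 0.37 over CD61- cells. These are descriptions over cells that share plates.

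Of 8931 genes with a count in at least 20% of cells, the one nearest to Alpl over 91 cells was Wif1, a secreted inhibitor of Wnt signals (rho 0.78). It was followed by Lrp4, a receptor of the same pathway (0.74), Cd63, a tetraspanin (0.74), Olfml3 (0.72) and Angpt4, an angiopoietin (0.72). Wif1 shared the order of Alpl over the classes, with 1306 CPM in intermediate, 509 in Spp1-rich and 235 in Cxcl12-rich cells. Since Wif1 was picked for its rho over these same cells, a shared order is partly given by that choice. The rho of Wif1 with Alpl was 0.78 inside the 17 Spp1-rich and 0.61 inside the 52 Cxcl12-rich cells.

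Phospho1 (chr11:95824499-95832140, plus strand) was counted in 7 cells, and only 2 of them reached 10 CPM, a CD61+ Spp1-rich cell at 34.5 CPM and a CD61- Cxcl12-rich cell at 32.1 CPM. The first gave 56.8% of all Phospho1 counts. The summed level was 2.53 CPM in CD61+, 1.00 CPM in CD61- and 1.04 CPM in VCAM1+ cells. In the 11 intermediate cells the count was 0, which with a floor of 3 counts allows up to 0.137 CPM for them together, while 9 of the 11 held Alpl. At this depth Phospho1 was not detectable in most cells with Alpl, since only 6 of the 48 cells with an Alpl count had a count of it.

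Enpp1 (chr10:24637914-24712159) and Enpp6 (chr8:46986887-47096762, plus strand) encode ecto-phosphodiesterases with different substrates, and both had their highest cells in the Spp1-rich class. Their upstream sequences are set side by side, since both genes had their highest summed level in that class. The windows, on GRCm38.p6 from RefSeq, are chr10:24712160-24712409 on the minus strand and chr8:46986637-46986886 on the plus strand, with motif matches in capitals as above:
Enpp1: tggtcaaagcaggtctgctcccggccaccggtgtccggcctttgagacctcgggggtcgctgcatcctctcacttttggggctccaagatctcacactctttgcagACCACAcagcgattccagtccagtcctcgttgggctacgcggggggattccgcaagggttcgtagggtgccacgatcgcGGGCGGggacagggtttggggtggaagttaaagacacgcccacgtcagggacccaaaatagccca
Enpp6: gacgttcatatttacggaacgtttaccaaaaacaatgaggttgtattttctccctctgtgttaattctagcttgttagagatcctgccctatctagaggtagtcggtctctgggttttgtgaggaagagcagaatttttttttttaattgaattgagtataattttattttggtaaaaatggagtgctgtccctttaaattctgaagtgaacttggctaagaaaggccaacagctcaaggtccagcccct
The Enpp1 window held 1 RUNX core, written in reverse as ACCACA, and 1 GC box, and was 61.2% G and C. The Enpp6 window held none of the 6 motifs and was 38.4% G and C. The RUNX core was found in 14.05% of all promoters of this length, Slc20a1's first start among them.

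Enpp1 gave a few counts almost everywhere. A count was found in 81 of 91 cells, at least 4 counts in 53, and at least 10 CPM in 31. In Spp1-rich cells it ran from 0 through a median of 51.3 to 1135 CPM, and 11 of 17 cells reached 10 CPM (64.7%, 38.3 to 85.8). In Cxcl12-rich cells it ran from 0 through 3.29 to 412 CPM, and 19 of 52 did (36.5%, 23.6 to 51.0). In intermediate cells it ran from 0.535 through 1.62 to 54.0 CPM, and 1 of 11 did (9.09%, 0.230 to 41.3). By median and by summed level, intermediate cells thus lay below both ends for the enzyme that makes pyrophosphate.

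Summed Enpp1 was 171 CPM in Spp1-rich, 32.3 CPM in Cxcl12-rich and 3.48 CPM in intermediate cells. Spp1-rich cells were 5.30-fold above Cxcl12-rich cells (5.10 to 5.52), and intermediate cells were 9.29-fold below Cxcl12-rich cells (7.40 to 11.8). One CD61+ cell gave 61.8% of the intermediate counts, and without it the others held 1.38 CPM, 23.4-fold below Cxcl12-rich cells. The second contrast had 1 direction in all 4 CD61 plates, with log2 ratios from -5.18 to -2.12. The first was higher in both CD61+ plates (2.29 and 2.57). In the CD61- plates, each with 1 Spp1-rich cell, it was higher in plate 1 (2.12) and lower in plate 2 (-1.18). By gate, CD61+ cells held 107 CPM and CD61- cells 33.4 CPM, 3.22-fold apart (3.08 to 3.35), but 16 of 39 and 14 of 40 cells reached 10 CPM, shares whose intervals overlap. Among Cxcl12-rich cells alone the summed levels were 39.5 CPM in CD61+ and 35.7 CPM in CD61- cells.

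Among the 17 Spp1-rich cells Enpp1 followed Spp1 and Alpl did not. Spearman's rho with Spp1 was 0.77 for Enpp1 and -0.23 for Alpl, and the rho of Alpl with Cxcl12 there was 0.60. Over all 91 cells the rho of Alpl with Spp1 was 0.61 and that of Enpp1 with Spp1 was 0.27. The Spp1-rich cells differ in the share of counts that Spp1 takes, which all these values carry.

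**Figure D4:**
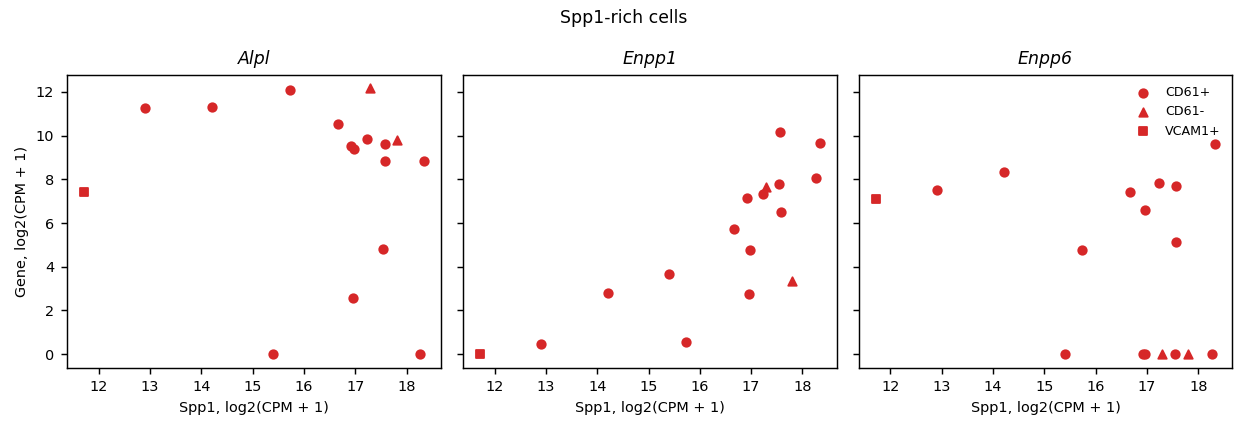
Alpl, Enpp1 and Enpp6 as log2(CPM + 1) against Spp1 on the same scale in the 17 Spp1-rich cells, with the marker shape giving the gate. Enpp1 is higher in the cells with more Spp1 (rho 0.77), while Alpl shows no such order (rho -0.23).

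The genes nearest to Enpp1 were Angpt2, an angiopoietin (rho 0.47 over 91 cells), Ibsp, bone sialoprotein (0.47), Mmp13, a collagenase (0.47), Megf10 (0.46) and Mast3 (0.43). Angpt2 stood at 67.4 CPM in Cxcl12-rich, 5.91 in intermediate and 44.4 in Spp1-rich cells, and Megf10 and Mast3 were also lower in intermediate cells than in both other classes. Ibsp was near equal in Cxcl12-rich (4204 CPM) and intermediate cells (4096 CPM) and higher in Spp1-rich cells (11663 CPM), while Mmp13 stood at 354, 1631 and 5763 CPM. These genes too were picked over the same cells, so a class order shared with Enpp1 is partly given by that choice.

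Enpp6 was found in few cells and at high level in those. A count was found in 20 cells and at least 10 CPM in 17, from 25.8 through a median of 183 to 772 CPM, while the highest cell below the limit held 2.36 CPM. In Spp1-rich cells it ran from 0 through 33.8 to 772 CPM, and 10 of 17 had it (58.8%, 32.9 to 81.6). Of the Cxcl12-rich cells 2 of 52 had it (3.85%, 0.469 to 13.2), and of the intermediate cells 2 of 11.

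By gate, 14 of 39 CD61+ cells (35.9%, 21.2 to 52.8) and 1 of 40 CD61- cells (2.50%, 0.0633 to 13.2) reached 10 CPM. Both CD61+ plates held such cells, 5 of 17 and 9 of 22, and 1 CD61- plate held 1. Summed Enpp6 was 109 CPM and 4.03 CPM, 26.9-fold apart (24.3 to 30.0), and in the CD61- gate 1 cell gave 99.7% of the counts. In Spp1-rich cells the summed level was 129 CPM against 8.66 CPM in Cxcl12-rich cells, 14.9-fold apart (13.9 to 16). One Cxcl12-rich cell gave 60.6% of the counts of its class, and without it that class held 3.49 CPM, 37.0-fold below Spp1-rich cells. In the CD61- gate neither of the 2 Spp1-rich cells had an Enpp6 count. Within the CD61+ gate the CD200 intensity had a median of 3643.5 in the 14 cells with Enpp6 and 657 in the 25 without, with overlapping ranges (630 to 7834 and 58 to 5056).

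A second set of Enpp6 cells was of another kind. Cdh5, which defines endothelial cells, reached 10 CPM in 4 cells, all low in both Cxcl12 and Spp1. Enpp6 stood at 582, 445, 66.8 and 0 CPM in them, in 2 CD61+ cells, 1 VCAM1+ cell and 1 CD61- cell in that order. The 3 cells with Enpp6 had counts of 7, 7 and 6 of the 7 endothelial markers searched, which summed to 10732, 8751 and 2232 CPM. In the other 14 cells with Enpp6 those markers summed to between 0 and 11.7 CPM with a median of 0. The CD61+ gate held 2 of the cells with Cdh5 and the CD61- gate another 2 cells with Cdh5 or Ptprc, and without these cells the log2 ratio of Enpp6 between gates was 4.33, against 4.75 with them.

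Spp1-rich cells also held transcripts of other skeletal types. Of the 4 osteocyte markers in the table, Dmp1 stood at 432 CPM there against 0.198 CPM in Cxcl12-rich cells, and Mepe at 20.4 against 0. Pdpn stood at 8.46 CPM (1.42 without 1 cell) against 0.541, while Phex was near equal at 33.6 and 34.8 CPM. The 4 summed to between 0 and 1709 CPM per Spp1-rich cell with a median of 326. Of 5 cartilage markers searched 2 were in the table, and they differed: Col2a1, a cartilage collagen, stood at 137 CPM against 0.0361, and Sox9, a transcription factor of cartilage, at 8.10 CPM against 18.99. Endothelial markers Cdh5, Kdr, Emcn, Tek, Egfl7 and Plvap had no count in Spp1-rich cells. Pecam1, the other of the 7 searched, stood at 0.491 CPM there, with 95.5% of its counts from 1 cell. The part of these transcripts in the Enpp1 and Enpp6 levels was not tested.

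**Figure D5:**
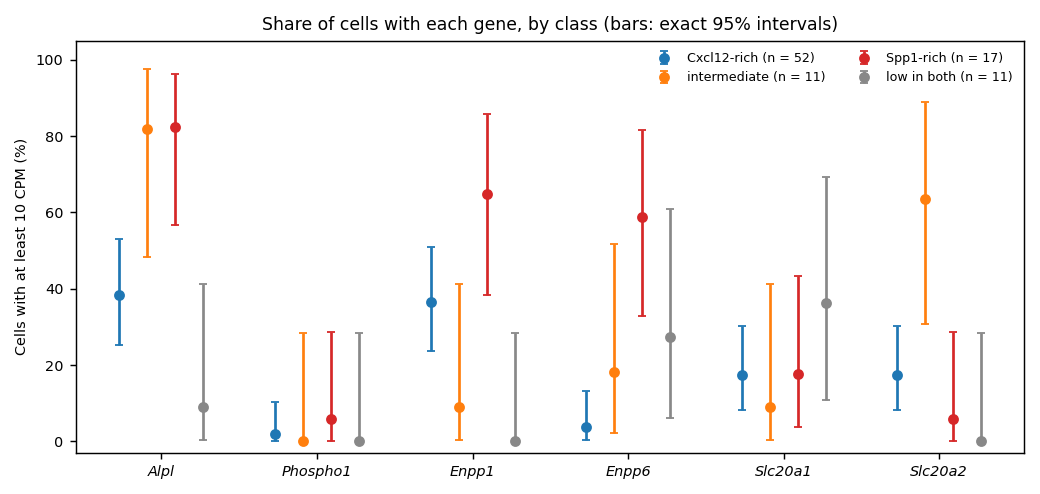
Percent of cells with at least 10 CPM of each gene, by class, with exact 95% intervals that cover counting error only. Alpl is near 82% in both intermediate and Spp1-rich cells, while Slc20a2 is at 63.6% and 5.88% in them and Enpp1 at 9.09% and 64.7%.

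Slc20a1 and Slc20a2 encode related phosphate carriers. Slc20a2 (chr8:22476788-22569612, plus strand) had at least 10 CPM in 17 cells, from 11.2 through a median of 76.3 to 396 CPM. In intermediate cells it ran from 0 through 68.5 to 396 CPM, and 7 of 11 had it (63.6%, 30.8 to 89.1). In Cxcl12-rich cells it ran from 0 through 0 to 203 CPM, and 9 of 52 had it (17.3%, 8.23 to 30.3). In Spp1-rich cells it ran from 0 through 0 to 13.9 CPM, and 1 of 17 had it (5.88%, 0.149 to 28.7).

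Summed Slc20a2 was 80.2 CPM in intermediate, 14.8 CPM in Cxcl12-rich and 0.937 CPM in Spp1-rich cells. Intermediate cells were 5.42-fold above Cxcl12-rich cells (5.06 to 5.80) and 85.6-fold above Spp1-rich cells (63.0 to 119). Of the 42 Spp1-rich counts 81.0% came from 1 CD61+ cell, and without it the class held 0.189 CPM, 425-fold below intermediate cells. The highest intermediate cell gave 46.6% of the counts of its class, which without it held 47.3 CPM, 3.20-fold above Cxcl12-rich cells. In the 3 CD61 plates that gave a ratio, intermediate cells were higher than Cxcl12-rich cells (log2 1.31 to 2.53), and Spp1-rich cells were lower (-8.29 to -2.98). The -8.29 and the -3.39 of CD61- plate 2 are upper bounds, because their Spp1-rich sums were under 3 counts and were raised to 3. In CD61- plate 2 all Cxcl12-rich counts came from 1 cell.

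Slc20a2 also differed between gates inside the Cxcl12-rich class. Over whole gates, 13 of 39 CD61+ cells (33.3%, 19.1 to 50.2) and 2 of 40 CD61- cells (5.00%, 0.611 to 16.9) had it, with summed levels of 34.6 and 6.75 CPM, 5.13-fold apart (4.70 to 5.61). Among Cxcl12-rich cells, 6 of 15 CD61+ and 1 of 31 CD61- cells had it, at summed levels of 45.3 and 4.89 CPM. The CD61- plates differed: plate 1 held 0.133 CPM in 24 cells and plate 2 held 15.7 CPM in 16 cells, nearer to the 19.7 CPM of CD61+ plate 2 than to its own gate's other plate.

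The genes nearest to Slc20a2 were Gdf10, a bone morphogenetic protein relative (rho 0.53 over 91 cells), Hey1, a Notch target (0.49), Kcnk2, a potassium channel (0.47), Plxna2, a semaphorin receptor (0.47), and Cldn10, a claudin (0.45). All 5 had their highest class level in intermediate cells, as in Kcnk2 with 220 CPM there, 39.2 in Cxcl12-rich and 15.6 in Spp1-rich cells. They were picked for their rho with Slc20a2 over these same cells, so a shared class order is partly given by that choice.

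Slc20a1 (chr2:129198764-129211616, plus strand) reached 10 CPM in 17 cells too, from 10.7 through a median of 53.1 to 271 CPM, and these were 9 of 52 Cxcl12-rich, 1 of 11 intermediate, 3 of 17 Spp1-rich and 4 of 11 cells low in both. The intervals of the 4 shares overlap. Summed levels were 14.7, 4.35, 6.43 and 34.1 CPM in that order. Of the 4 cells low in both, 2 also had Cdh5 and 1 had Ptprc, a blood gene, at 10 CPM or more. Summed Slc20a1 was 60.7 CPM in the 4 cells with Cdh5 and 12.5 CPM in the other 87. A cell with Cdh5 at 247 CPM of Slc20a1 and the cell with Ptprc at 16.9 CPM were in the CD61- gate. One cell gave 96.8% of the intermediate counts and another 62.5% of the Spp1-rich counts, and without them those classes held 0.149 and 2.54 CPM. By gate, 5 of 39 CD61+, 7 of 40 CD61- and 3 of 9 VCAM1+ cells had it, at 8.07, 10.5 and 37.9 CPM. The plates of 1 gate differed more than the gates did, with 0.666 and 15.7 CPM in the CD61+ plates and 1.76 and 22.2 CPM in the CD61- plates. The nearest genes were Csnk1e (rho 0.48), Stxbp2 (0.47), Nploc4 (0.43), Prps1l3 (0.43) and Olfr986 (0.43). For Stxbp2 the rho was 0.22 once each cell was thinned to 500000 counts.

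Cells with both of a pair of the genes were counted at 10 CPM for all 15 pairs. Alpl was found in 14 of 17 cells with Slc20a2 (82.4%, 56.6 to 96.2) and in 30 of 74 without it (40.5%, 29.3 to 52.6). The same numbers held for Enpp6, with 14 of 17 and 30 of 74, although only 4 cells held both Enpp6 and Slc20a2. These shares carry the gates: 13 cells with Slc20a2 were CD61+ and 2 CD61-, against 14 and 1 with Enpp6 and 30 and 12 with Alpl. Spearman's rho of Alpl with Slc20a2 was 0.38 over all cells, 0.455 over CD61+ and 0.18 over CD61- cells. With Enpp6 it was 0.33, 0.27 and 0.17. The part of gate and class in these shares was not tested. Alpl was no more frequent with Enpp1, in 15 of 31 cells (48.4%, 30.2 to 66.9) against 29 of 60 without it (48.3%, 35.2 to 61.6). In the Cxcl12-rich class 5 of 20 cells with Alpl (25%, 8.66 to 49.1) and 14 of 32 without it (43.8%, 26.4 to 62.3) had Enpp1, intervals that overlap. With at least 4 counts as the limit for both genes these were 11 of 20 and 21 of 32. Both carriers were in 3 cells: Slc20a1 in 3 of 17 cells with Slc20a2 (17.6%, 3.799 to 43.4) and in 14 of 74 without (18.9%, 10.8 to 29.7).

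The number of these genes at 10 CPM or more per cell also differed by class. At least 1 was found in 40 of 52 Cxcl12-rich, 9 of 11 intermediate, 16 of 17 Spp1-rich and 6 of 11 cells low in both. At least 3 were found in 4, 4, 8 and 0 cells in that order. No cell held all 6, and 1 Spp1-rich cell held 5. The classes also differed in how many genes of any kind were counted, with medians of 5319, 5207, 6511 and 5614 genes per cell in the same order. The part of that difference in the counts of the 6 genes was not tested.

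Counted against all genes, 4 of the 6 were at least 2-fold higher in summed CD61+ than in CD61- counts (Phospho1, Enpp1, Enpp6 and Slc20a2), where the background is 19.4% of 14063 genes, and none was at least 2-fold lower (background 17.3%). When each CD61+ plate had to exceed each CD61- plate, 4 were higher (Alpl, Enpp1, Enpp6 and Slc20a2; background 20.0%) and none was lower (17.8%). The median log2 ratio was 1.51 for the 6 and 0.0084 for all genes. Markers moved with the gates too: 6 of 10 CAR markers were at least 2-fold lower in CD61+ cells, 5 of 11 osteolineage markers, 5 of 5 fibroblast markers, 3 of 4 endothelial markers that passed the filter and 2 of 3 pericyte markers at least 2-fold higher, and their part in the differences was not tested. In Spp1-rich against Cxcl12-rich cells 4 were higher (Alpl, Phospho1, Enpp1 and Enpp6; background 12.6% of 14564) and 2 lower (Slc20a1 and Slc20a2; background 41.0%), where the median of all genes was -0.68 on the log2 scale. With TMM factors 20.1% of all genes were higher and 29.2% lower, with a median of -0.17. With totals scaled to take up that shift, Slc20a1 was no longer past 2-fold: its log2 ratio of -1.20 became -0.68 with TMM factors, -0.55 with DESeq2 size factors and -0.99 with Spp1 left out of the totals. The other 5 kept their side of the 2-fold limit under all 3. In intermediate against Cxcl12-rich cells 3 were higher (Alpl, Enpp6 and Slc20a2; background 20.1% of 14486) and 3 lower (Phospho1, Enpp1 and Slc20a1; background 29.3%). In intermediate against Spp1-rich cells 1 was higher (Slc20a2; background 39.4% of 13770) and 3 lower (Phospho1, Enpp1 and Enpp6; background 22.1%), where the median of all genes was 0.52. Slc20a1, at -0.56 in that contrast, passed 2-fold with TMM factors (-1.19) and DESeq2 size factors (-1.13), and without 1 cell it ran from -5.43 to 0.77. Single cells decided some of these calls. Without 1 cell the log2 ratio of Phospho1 between gates was -2.70 rather than 1.34, and that of Spp1-rich to Cxcl12-rich cells 0.18 rather than 2.48. For intermediate against Cxcl12-rich cells the Phospho1 count of 0 was raised to the floor of 3, so the ratio is an upper bound. Without 1 cell that bound was 0.43 rather than -2.70, which gives no direction. Without 1 cell the log2 ratio of Enpp6 in intermediate against Cxcl12-rich cells was -0.77 rather than 1.34. In the CD61- gate alone the 2 Spp1-rich cells had no count of Phospho1 or Enpp6. With that floor their log2 ratios to Cxcl12-rich cells were at most -1.09 and -3.10.

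Other genes of phosphate and pyrophosphate handling were taken as a list of 15 symbols, of which 10 were in the table. Between gates 5 of the 10 were at least 2-fold higher in CD61+ cells (background 19.4%) and 2 lower (17.3%), with a median log2 ratio of 1.16 against 0.0084 for all genes. In Spp1-rich against Cxcl12-rich cells 4 were higher (background 12.6%) and 3 lower (41.0%), with a median of -0.13 against -0.68 for all genes, and 0.38 against -0.17 with TMM factors. The most abundant were Ibsp, Ppa1, a soluble pyrophosphatase, Fam20c, a kinase of secreted proteins, and Ank, which exports pyrophosphate or its precursor. Fam20c stood at 218 CPM in Spp1-rich, 14.01 in intermediate and 2.84 in Cxcl12-rich cells. Ank stood at 189, 11.2 and 12.2 CPM, so that it was highest in the class where Enpp1 was highest. Ppa1 stood at 37.8, 77.7 and 43.5 CPM in that order. Each of the 3 intermediate levels came mostly from 1 cell, and without it they were 0.910 CPM for Fam20c, 0.264 for Ank and 17.1 for Ppa1, which was then lowest in intermediate cells.

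Of 9 symbols of the closest relatives of the 6 genes, 5 were in the table (Phospho2 and Enpp2 to Enpp5 of the same families). All 5 were at least 2-fold lower in Spp1-rich than in Cxcl12-rich cells (background 41.0%), with a median log2 ratio of -2.06 against -0.68 for all genes. With TMM or DESeq2 factors 4 of the 5 were. Enpp4 stood at 3.39 and 88.1 CPM, Enpp5 at 23.8 and 99.2, Enpp2, which makes lysophosphatidic acid, at 15.2 (2.49 without 1 cell) and 52.2, and Phospho2 at 22.9 and 50.1. Between gates none was at least 2-fold higher (background 19.4%) and 1 was lower (17.3%), with a median of -0.52.

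Matrix vesicle and mineral binding proteins were a list of 11 symbols with 10 in the table, Spp1 among them, which set the classes. Between gates 4 were at least 2-fold higher in CD61+ cells (background 19.4%) and 1 lower (17.3%), with a median of 0.81 against 0.0084 for all genes. In Spp1-rich against Cxcl12-rich cells 6 were higher (background 12.6%) and 2 lower (41.0%), with a median of 5.72 against -0.68, and 7 higher and 1 lower with TMM or DESeq2 factors. Bglap, osteocalcin, stood at 41907 CPM in Spp1-rich, 1740 in intermediate and 14.1 in Cxcl12-rich cells, and Bglap2 at 18691, 2550 and 4.32 CPM. The only VCAM1+ cell of the Spp1-rich class gave 95.6% and 86.9% of these Spp1-rich counts, and without it the class held 2114 CPM of Bglap and 2832 CPM of Bglap2, both near the intermediate level. Single cells also gave most of the Cxcl12-rich counts, 83.4% and 98.3%. Reads of these near-identical genes can be split between copies. Sparc, a collagen-binding protein, stood at 23110, 4530 and 5152 CPM, and at 14066 CPM in Spp1-rich cells without that cell.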

How the data were processed

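Smart-seq2 libraries of 91 single bone marrow cells were analysed from 1 table of estimated counts per gene that the authors deposited. Per the submitters' processing notes kallisto 0.43.0, R 3.5.1 and the mm10 build were used, and no source used here gives the annotation. All values are whole numbers. The authors also deposited a table of index-sorting intensity values and read totals per cell, and 42 of its columns were not used. Kallisto shares reads between similar transcripts, so levels of near-identical genes are uncertain.

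CPM was computed here from each cell's counts or from counts summed over a group with scipy 1.17.1, pandas 2.3.3 and numpy 2.4.6 under Python 3.11.15, with exact Poisson intervals for levels, the exact binomial split for ratios and Clopper-Pearson intervals for shares. A gene entered the background when its counts over both groups reached 10 and at least 5 cells had a count. For log2 ratios of summed counts a sum under 3 was raised to 3, so a ratio with such a sum is a bound. TMM factors came from edgeR 4.0.16 and size factors from DESeq2 1.42.0 (R 4.3.3), as alternatives. Ratios and neighbours were checked on simulated data. No doublet caller was run and no cell was removed.

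Named genes were the 6 genes, the 5 of highest Spearman's rho with each of them that had a count in at least 25% of cells (mitochondrial, ribosomal protein and predicted genes left out), Cxcl12 and Spp1, and up to 4 of highest summed CPM per list; other genes were named after their values were seen. The 6 genes and all lists were chosen with earlier results of these data known. Gene positions are from GENCODE vM21 and upstream sequences from RefSeq (GRCm38.p6), which matched 5 of the 6 genes.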

Additional observations from a re-analysis of the deposited data

Results flagged for a closer look

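In the VCAM1+ gate 1 of the 9 cells stood apart from the other 8 for each of the 6 genes, by the gap to the next cell as a share of the whole range (Dixon's 95% critical value). Chance flags about 1 in 20 groups of evenly spread values, and values that are mostly 0 are not evenly spread. The highest Alpl level there was 169.8 CPM and the next 0 CPM. For Phospho1 these were 5.963 and 0 CPM, and for Enpp1 11.02 and 1.949 CPM. For Enpp6 they were 137.5 and 66.79 CPM, the second in a cell with Cdh5. For Slc20a1 they were 270.9 and 87.13 CPM, and for Slc20a2 61.4 and 0.2497 CPM. The Alpl, Phospho1 and highest Enpp6 values all belong to the gate's only Spp1-rich cell.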

How the results depend on the processing

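No paired analysis was possible because no test was run, each gate is 1 sample and cells carry no pairing. Of 480 recomputed values 8 turned the direction of a difference of at least 2-fold, and of the others 385 stayed within a limit and 87 moved past it. For log2 ratios the limit was the standard deviation over plates or pairs of plates. It was the exact interval for shares and joint counts, and a fixed size for rank correlations and background counts. Over all sizes the sign changed in 16 of 289 recomputed log2 ratios, 5 of them for Slc20a1 between gates. Values are log2 ratios, and the cause of a shift was not tested.

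For CD61+ against CD61- cells, Alpl (0.57) was 0.96 as a mean of CPM, 3.92 as a difference of mean log2(CPM + 1), and 0.99 after thinning. Leaving out 1 cell or 1 plate, Alpl ran from 0.32 (without CD61- plate 1) to 0.93. Phospho1 (1.34) ran from -3.24 (without CD61+ plate 1; -2.70 without 1 cell) to 5.82 and Enpp1 (1.69) from 1.16 to 2.79 (without CD61- plate 1). Enpp6 (4.75) ran from 3.95 to 11.66 (10.47 without CD61- plate 1), Slc20a1 (-0.38) from -3.98 (without CD61+ plate 2) to 2.19 (without CD61- plate 2), and Slc20a2 (2.36) from 1.15 (without CD61- plate 1) to 8.03 (without CD61- plate 2). The Enpp6 values 11.66 and 10.47 are lower bounds, because the CD61- sum was under 3 counts and was raised to 3.

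For Spp1-rich against Cxcl12-rich cells, the difference of mean log2(CPM + 1) was 5.07 for Alpl, 0.14 for Slc20a1 and -0.71 for Slc20a2. In CD61- cells only, with 2 Spp1-rich cells, Phospho1 was -1.09, Enpp6 -3.10 and Slc20a1 -3.78. These are upper bounds, since the 2 cells had no count of these genes. Phospho1 ran from 0.18 to 5.61 without 1 cell.

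For intermediate against Cxcl12-rich cells, the difference of means was 6.32 for Alpl, -1.40 for Enpp1 and 3.22 for Slc20a2. Leaving out 1 cell, Alpl ran from 2.75 to 3.36, Phospho1 from -2.77 to 0.43, Enpp6 from -0.77 to 2.65, Slc20a1 from -6.63 to -1.19 and Slc20a2 from 1.68 to 2.93. With classes parted at 4-fold Alpl was 2.50. In CD61+ cells only Alpl was 2.74, Phospho1 -0.085 and Slc20a2 1.54. In CD61- cells only Enpp1 was -4.97, Enpp6 -4.19 and Slc20a1 -4.87. The Phospho1 values here, and those of Enpp6 and Slc20a1 in CD61- cells only, are upper bounds. In them the intermediate cells had no count, which was raised to the floor of 3.

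For intermediate against Spp1-rich cells, the difference of means was -0.58 for Phospho1, -3.60 for Enpp1 and 3.93 for Slc20a2. Slc20a1 (-0.56) was -1.19 with TMM factors, -1.13 with DESeq2 size factors, 0.69 with classes parted at 16-fold and -0.019 in CD61+ cells only, and ran from -5.43 to 0.77 without 1 cell. Alpl (0.89) was -0.34 in CD61- cells only.

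Enpp1 was found in 58.2% of cells at 4 counts, 67.0% after thinning and 34.1% at 10 CPM. At 10 CPM Phospho1 was found in 2.20% and Slc20a2 in 18.7%.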
